A study of Mus musculus with 12 samples.

Results

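Opposite-strand transcript rows, whose symbol is a gene name followed by os (Dnmt3aos, Zeb2os), were described in cultured mouse macrophages at rest and after classical activation. Of the 24552 rows of the count table, 134 had a symbol ending in os, and 8 of those (Fos, Mios, Mocos, Mos, Nrros, Otos, Selenos and Uros) are not named after another gene. Among the 126 others, 69 held no count, 14 held 1 to 9 counts over the 12 libraries and 43 held 10 or more. Il1bos and Bach2os were left out by name, which gave 41 rows. Their total was 176678 counts, or 3.36% of all counts. The rows were chosen by their symbol and selected on their total count, so that total is a description with no test. The lowest 2 inside the limit were Zfp652os with 12 counts and Msx1os with 14, and the highest outside was Hoxa11os with 8.

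The cells were bone marrow-derived macrophages of 2 genotypes, wild type (WT) and a knockout (KO) of Gpr31b, the gene of a G protein-coupled receptor. Cells were resting (M0) or had been stimulated with LPS and IFN-γ (M1), which gave 4 groups of 3 libraries: WT M0, WT M1, KO M0 and KO M1. All 4 groups carry the Gpr31b genotype of their mice and no other allele is given, and the age of the mice, the doses and the times are not given in the sources used here. Polyadenylated RNA was sequenced from strand-specific libraries. Library totals ran from 372878 to 585465 counts. The Gpr31b row held 2 counts in each WT M1 library and 0 in the other 9 libraries, so it says little about the knockout. Of 12 macrophage markers 10 were high enough to test, and of 12 genes of classical activation (among them Nos2, Acod1 and Cxcl10) 10 were tested and all 10 rose in both genotypes by the test defined below. Of these, Cxcl9, Cxcl10, Gbp2, Ifit2, Ptgs2 and Il1b were at 0 in all M0 libraries. Nos2, Acod1, Cd38 and Irf1 held 0 to 8 counts in each M0 library. All 10 were thus high enough to test only through M1. For such rows a rise was set or favoured in advance, so the 10 are a description and no test of activation. Levels are in CPM, that is, relative to the size of each library. Summed over the 12 macrophage markers, the level was between 578 and 658 CPM in WT M0 and between 423 and 518 in WT M1. In knockout it was between 393 and 754 at rest and between 378 and 577 after stimulation. By the same test 4 of these markers were higher and 2 lower in WT M1 (25.7% and 23.1% of all rows), and 5 and 3 in KO M1 (25.2% and 22.4%). The summed level of 6 dendritic cell markers went from between 33.7 and 47.2 CPM in WT M0 to between 547 and 655 in WT M1, in KO from between 29.4 and 50.9 to between 492 and 716. Xcr1 made up most of that difference, with log2 fold changes of 4.45 and 4.74. Clec9a, the other one tested, fell in knockout (-6.12, edgeR adjusted p = 0.00509) and had -3.22 in wild type (adjusted p = 0.069). By these changes and the summed M0 levels, Clec9a was high enough to test only through M0. That favoured a fall in advance, so its p-values are a description and no support. Flt3, Zbtb46 and Cd209a were at 0 in all libraries. The 4 NK cell markers were at 0 in all libraries. The part of other cells in the results below was not tested. In bulk RNA, fewer cells of a type and less RNA per cell cannot be told apart.

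An os symbol is given to a transcript annotated on the strand opposite to a named gene. Such transcripts may start close to the promoter of that gene and run away from it, lie inside it, or run into its end, and some are known to alter the expression or splicing of their partner. LPS, a bacterial cell wall component, acts through Toll-like receptor 4, NF-κB and interferon regulatory factors. Together with IFN-γ, a cytokine of lymphocytes, it turns resting macrophages into cells that make inflammatory mediators and interferon-induced proteins. In a strand-specific library the strand of each read is known, but the strand setting used for counting is not given in the sources used here, so reads of an os transcript and of the gene opposite it cannot be told apart in this table. Each os row is therefore read beside the row of the gene it is named after, and values are given by row.

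Where os exons lie over exons of another gene, both strands of the same bases are annotated as transcript. Of the 41 rows, 39 matched a gene of GENCODE M21 (build GRCm38), all except Ggnbp2os and Msx1os. Most were annotated as noncoding: 28 as antisense, 3 as lincRNA, 3 as processed transcripts and 1 as a pseudogene, while 4 (among them Cebpzos, Slc7a6os and Wdr83os) were protein-coding. Exons of 35 of the 39 shared 20 or more bases with an exon on the opposite strand, and for 33 that was an exon of the gene in the name. The sequences below show such shared bases for 6 of the rows with the clearest values, on the strand of the os transcript. Capitals mark an unbroken run of bases shared with a coding exon of the opposite gene. The lower-case bases are the next 10 of the os transcript on either side (the Slfn5os sequence starts at its first base). Lower-case bases may be shared too: those of Slfn5os lie in its next exon, which is also over a coding exon of Slfn5. They are GENCODE M21 transcripts on GRCm38, and the reverse complement of each run of capitals was found in at least 1 transcript of the opposite gene.
Slfn5os over Slfn5, chr11:82960605-82960681, minus strand: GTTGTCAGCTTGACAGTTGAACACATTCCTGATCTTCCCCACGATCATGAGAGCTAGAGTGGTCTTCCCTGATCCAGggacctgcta
Scpep1os over Scpep1, chr11:88935856-88935951, plus strand: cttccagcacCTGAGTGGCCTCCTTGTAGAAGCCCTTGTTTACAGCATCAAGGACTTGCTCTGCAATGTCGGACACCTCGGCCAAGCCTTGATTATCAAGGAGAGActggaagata
Rab10os over Rab10, chr12:3249790-3249870, plus strand: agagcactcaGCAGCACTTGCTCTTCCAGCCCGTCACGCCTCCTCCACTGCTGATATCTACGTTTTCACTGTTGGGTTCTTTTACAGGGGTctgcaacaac
Brip1os over Med13, chr11:86285113-86285271, plus strand: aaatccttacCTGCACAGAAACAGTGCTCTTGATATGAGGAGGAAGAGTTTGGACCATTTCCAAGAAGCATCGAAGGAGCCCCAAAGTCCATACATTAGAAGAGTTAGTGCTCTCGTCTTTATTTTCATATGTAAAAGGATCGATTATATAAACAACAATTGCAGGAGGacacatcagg
Tomm6os over Tomm6, chr17:47687899-47688026, plus strand: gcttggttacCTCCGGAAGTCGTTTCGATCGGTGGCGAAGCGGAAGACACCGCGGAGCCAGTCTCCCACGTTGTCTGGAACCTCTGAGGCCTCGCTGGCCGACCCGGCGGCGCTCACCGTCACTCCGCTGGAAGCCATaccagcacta
Far1os over Far1, chr7:113540607-113540686, minus strand: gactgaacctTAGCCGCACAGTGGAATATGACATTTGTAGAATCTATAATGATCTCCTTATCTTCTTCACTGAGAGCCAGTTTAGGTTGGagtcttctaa

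The arrangement of the pairs varied. In 14 pairs the 5′ ends of the os transcript and of the named gene overlapped, in 8 the 3′ ends did, in 9 the os transcript lay inside the named gene, in 2 the named gene lay inside the os transcript, and in 6 the spans were separate. Brip1os, with the most counts, belongs to the last kind: its start lies 177 bases from the start of Brip1, on the other strand, and it runs away from that gene. Its exons share 800 bases with coding exons of Med13, a subunit of the Mediator complex, and 512 with Ints2, a subunit of the Integrator complex. The Phtf1os exons likewise shared 2101 bases with Rsbn1 beside 448 with Phtf1. Tomm6os shared 1221 bases with Prickle4 beside 219 with Tomm6. Tomm6os, Zeb2os and Zfhx2os also shared exon bases with a gene on their own strand, so their counts may hold reads of that gene. As a description of the total counts that the rows were selected on, the 35 with an opposite-strand exon had a median of 909 counts (12 to 39057), and the 4 without (among them Fam120aos, Ptgs2os and Slc7a6os) had a median of 31 (15 to 76). Among 79 matched os symbols under the limit of 10 counts, 35 had an opposite-strand exon.

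**Figure D1:**
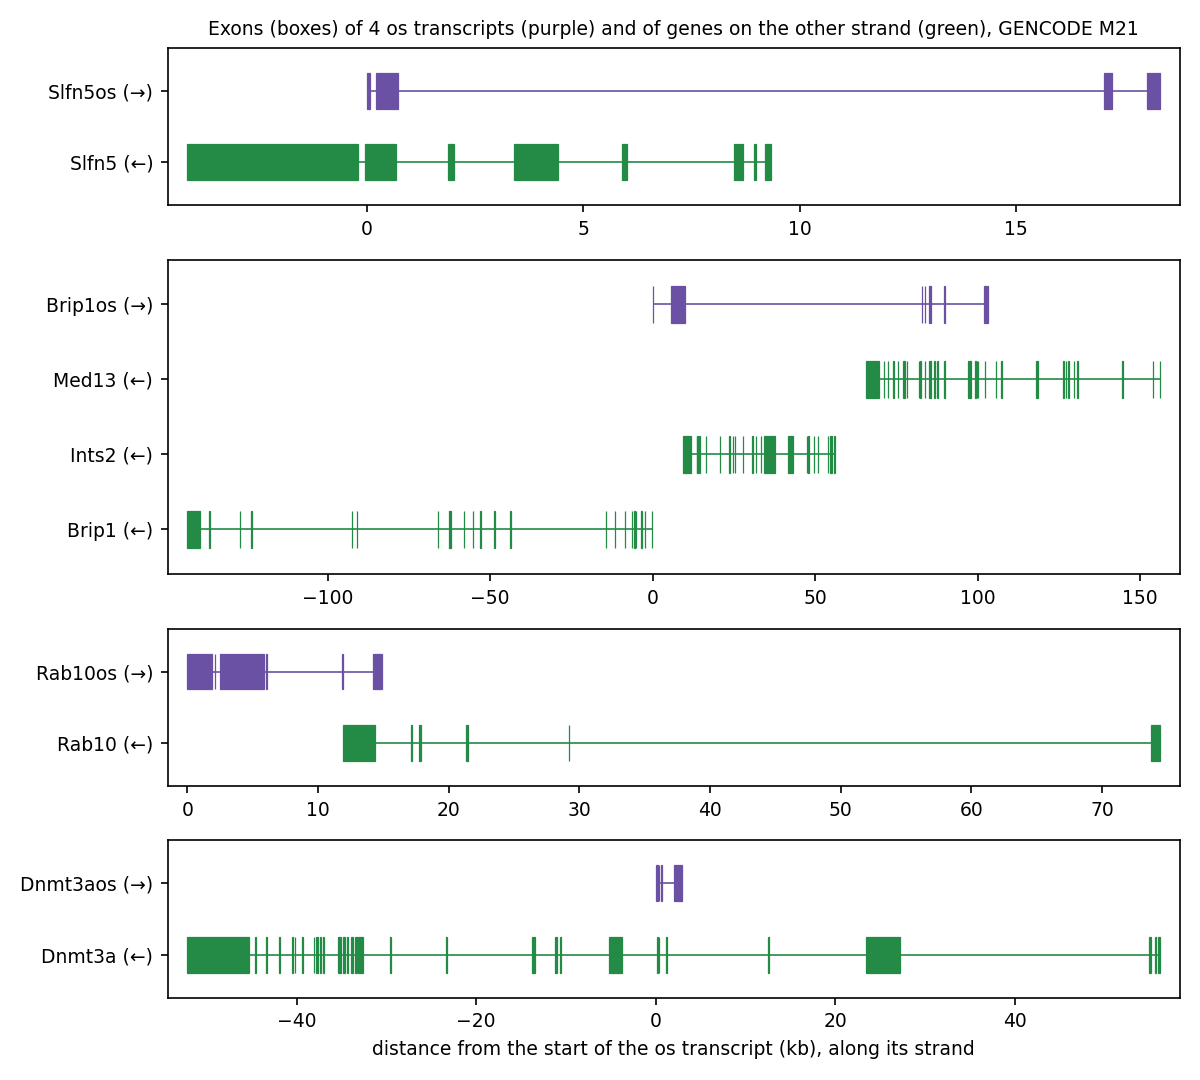
Exons (boxes) and introns (lines) of Slfn5os, Brip1os, Rab10os and Dnmt3aos in purple and of opposite-strand genes in green, against the distance in kb from the start of the os transcript along its own strand (each panel has its own scale). Arrows give the direction of transcription: Slfn5os starts inside Slfn5, Brip1os starts beside Brip1 and runs across Ints2 and into Med13, Rab10os runs into the 3′ end of Rab10, and Dnmt3aos lies inside Dnmt3a.

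Promoters were read from RefSeq (GRCm38.p6), as 250 bases before to 50 after each start. Of the 41 os rows 32 had an entry, with 35 promoters. Motifs were searched on both strands: the core of the interferon-stimulated response element (GAAA, any 2 bases, GAAA), the GAS element (TTCNNNGAA), AP-1 (TGANTCA), the cAMP response element (TGACGTCA) and NF-κB by its usual consensus. GAS had a match in 6 of the 35 os promoters, against 8.3% of all 32851 promoters, the interferon element in 1 (3.44% of all), AP-1 in 2 (7.81%), NF-κB in 3 promoters of 2 genes (4.51%) and the cAMP element in 0 (1.79%). A match is a description of the letters and not a site. The starts of Slfn5os, Ptgs2os, Ptgs2 and Scpep1os, whose rows also rose in M1, held no match to any of these motifs. The bases before 3 other starts are printed because they held a match, so they do not stand for the rows with large changes. Matches are in capitals. The first start printed is that of Slfn5, whose interferon element begins 155 bases before it. Rab10os is the one os promoter with the interferon element, 222 bases before its start on the other strand, and has GAS matches 237 and 106 bases before it. That start is the one in RefSeq; in GENCODE M21 the first exon of Rab10os begins earlier and holds these bases. Dnmt3aos has an AP-1 match 199 bases before its start.
Slfn5, chr11:82951852-82952101, plus strand: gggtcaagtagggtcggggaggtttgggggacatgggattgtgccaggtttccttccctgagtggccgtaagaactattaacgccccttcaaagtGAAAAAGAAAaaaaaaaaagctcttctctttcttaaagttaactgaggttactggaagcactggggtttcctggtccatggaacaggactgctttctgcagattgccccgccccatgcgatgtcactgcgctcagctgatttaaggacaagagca
Rab10os, chr12:3235541-3235790, plus strand: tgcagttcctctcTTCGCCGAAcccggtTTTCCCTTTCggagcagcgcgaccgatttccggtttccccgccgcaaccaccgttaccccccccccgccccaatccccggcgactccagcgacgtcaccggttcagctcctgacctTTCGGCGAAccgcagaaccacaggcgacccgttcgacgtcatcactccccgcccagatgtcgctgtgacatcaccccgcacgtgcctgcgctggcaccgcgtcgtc
Dnmt3aos, chr12:3862245-3862494, minus strand: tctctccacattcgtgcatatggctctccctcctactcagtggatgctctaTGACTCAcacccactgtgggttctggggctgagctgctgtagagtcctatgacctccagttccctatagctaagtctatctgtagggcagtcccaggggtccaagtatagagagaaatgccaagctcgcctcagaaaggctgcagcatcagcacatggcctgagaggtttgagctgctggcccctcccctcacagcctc

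The levels of the os rows are set beside those of the genes they are named after as a description. The os rows had been selected on 10 or more counts and the named genes had passed no such limit, and 69 of the 126 os symbols held no count. The CPM were scaled with TMM factors, which adjust for library composition, and divided by kb of exon to compare genes. Per kb, the os row was higher in 35 of 39 pairs, with a median of 62.5 CPM per kb against 0.53 for the named genes, over all 12 libraries. The named gene was at 0 in 7 of these pairs (Acss2, Brip1, Frs3, Has2, Nudt12, Slc7a6 and Tnk2). Scpep1os was the highest row, at 8183 CPM per kb, beside 6.81 for Scpep1, a lysosomal serine carboxypeptidase. Slfn5os averaged 3083 CPM per kb beside 8.67 for Slfn5. The 4 pairs in the other direction included Fbxl12os, Ptgs2os and Wdr83os. Wdr83os, which encodes a protein of the membrane insertion machinery of the endoplasmic reticulum, averaged 14.8 CPM per kb, below the 54.5 of Wdr83. Cebpz and Zeb2 had the highest levels of the named genes in the 39 pairs (345 for Cebpzos against 137, and 559 for Zeb2os against 93.8). Next came Wdr83, whose os row was the lower one, and Rab10 (536 for Rab10os against 26.1). The 2 rows with the most counts, Brip1os and Scpep1os, held 41.3% of all os counts, and the 10 highest held 90.1%.

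**Figure D2:**
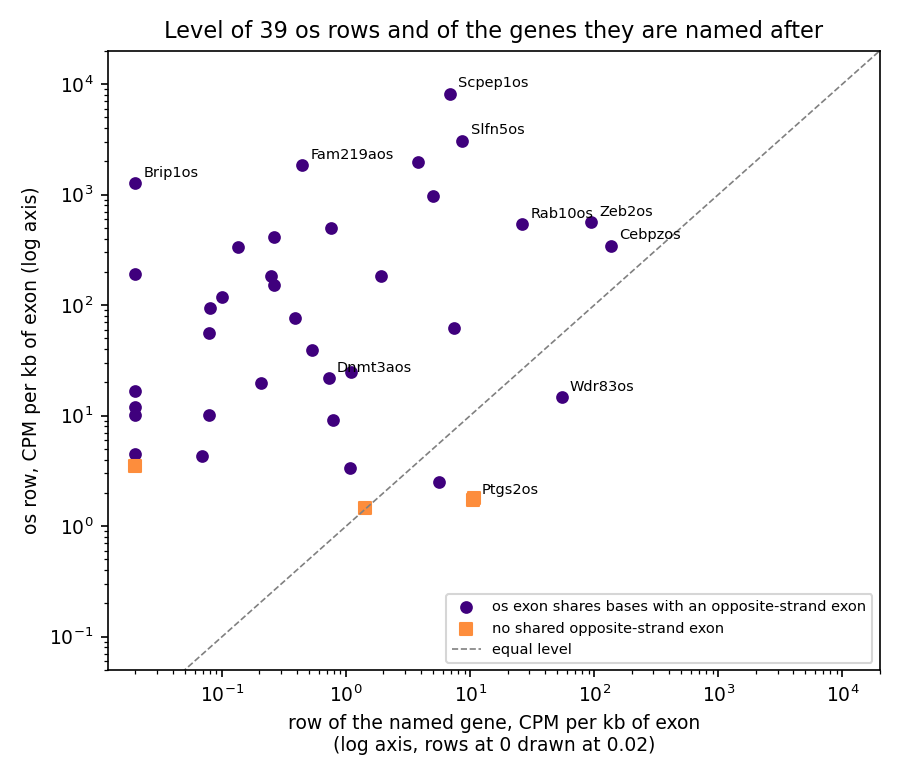
Mean level of 39 os rows (vertical, CPM per kb of exon, log axis) against the row of the gene in the name (horizontal, same unit, log axis, rows at 0 drawn at 0.02), over 12 libraries. Points above the dashed line, 35 of 39, are pairs in which the os row was higher, and the 4 os rows with no opposite-strand exon (squares) lie between 1.47 and 3.47 CPM per kb, a range that also holds Fbxl12os and Zfp85os, which have one.

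Stimulation changed about as large a share of os rows as of all rows. The table was tested with edgeR's quasi-likelihood test over all 12 libraries, rows were called at a Benjamini-Hochberg adjusted p under 0.05 over all 2333 tested rows, and errors of fold changes are standard errors (SE). In all, 34 of the 41 os rows were high enough to test, and the other 7 were too low. In wild type 19 of the 34 tested os rows were called between M1 and M0, where 48.8% of all tested rows were. Of these 8 were higher and 11 lower in M1, where 25.7% and 23.1% of all rows were. In knockout 18 of 34 were called, where 47.6% of all rows were, 10 higher (25.2% of all rows) and 8 lower (22.4%). In both genotypes 14 rows were called, each in the same direction in both: 7 higher (21.5% of all rows) and 7 lower (18.3%). In 22 rows of 34 the wild-type libraries of M1 and M0 did not overlap in CPM, as in 56.2% of all rows, and in 20 the knockout libraries, as in 55.3%. Another 5 were called in wild type alone (9.04% of all rows), 4 in knockout alone (7.84%) and 11 in neither (43.4%). Among the called rows, Dnmt3aos, Nudt12os and Tnk2os were high enough to test only through M0, which favoured a fall in M1 in advance. Their p-values are a description and no support. The same holds for some named-gene rows given below. Those of Slfn5, Med13 and Ptgs2 were high enough only through M1, and that of Dnmt3a only through M0. The median log2 fold change of the tested os rows was -0.32 in wild type and -0.21 in knockout, against -0.03 and 0.01 for all tested rows. The os median did not keep its sign: it was 0.28 and 0.11 with counts halved and rounded up, which left 27 os rows to test, and 0.03 in knockout with the 6 libraries of that genotype alone. Without WT M0 replicate 1 it was -0.11 in wild type, and without KO M0 replicate 3 it was -0.13 in knockout. Under scaling by library size alone the median of all rows moved to -0.53 and -0.46, and the os calls split into 7 higher and 16 lower in wild type and 7 and 13 in knockout. All rows tilted the same way, with 17% higher and 37.8% lower in wild type and 16.8% and 36.4% in knockout, so all changes here are relative to the bulk of the rows.

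**Figure D3:**
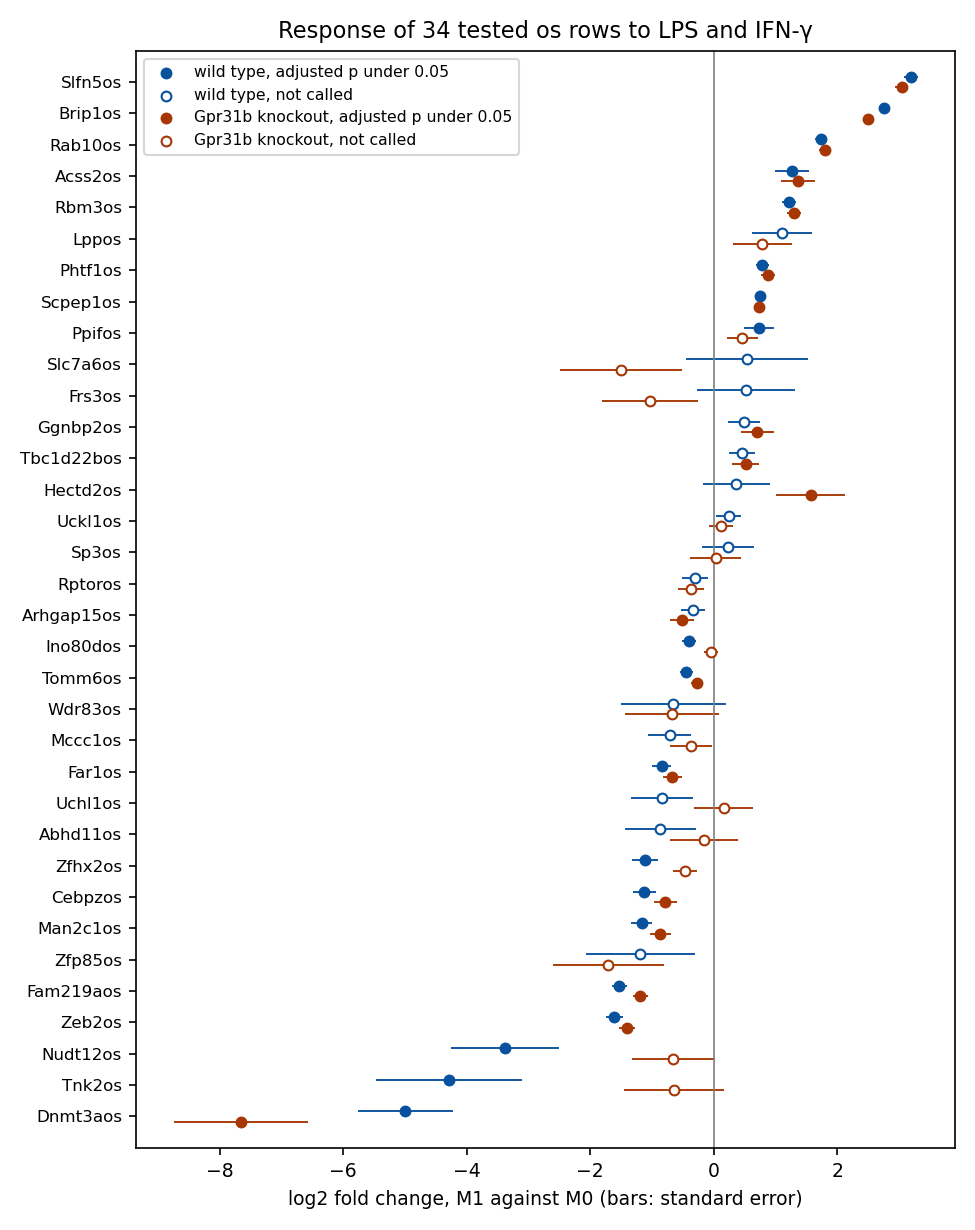
Log2 fold change of M1 against M0 for the 34 tested os rows, in wild type (blue) and knockout (red), with bars of 1 SE and filled points for an adjusted p under 0.05. Rows are ordered by the value in wild type, from Slfn5os at the top (3.19 and 3.05) to Dnmt3aos at the bottom, whose M1 libraries were at or near 0.

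Slfn5os had the largest rise of the 34 tested os rows. Slfn5 belongs to the Schlafen family of interferon-induced genes. The Slfn5os row held 409, 379 and 335 counts in WT M0 against 3407, 2125 and 1924 in WT M1 and, for knockout, 372, 291 and 364 at rest against 1989, 2046 and 2224 after stimulation. Each stimulated library lay above every resting one in both genotypes. The mean level went from 717 ± 90.1 to 6555 ± 253 CPM in wild type (SD, n = 3) and from 683 ± 91.2 to 5636 ± 263 in knockout. The log2 fold change was 3.19 ± 0.11 in wild type (edgeR adjusted p = 1.61e-21) and 3.05 ± 0.11 in knockout (adjusted p = 6.15e-21). The Slfn5 row rose too, from 8, 13 and 4 to 55, 31 and 31 counts in wild type (log2 fold change 2.65 ± 0.47, edgeR adjusted p = 1.83e-05) and from 1, 5 and 6 to 38, 27 and 37 in knockout (3.48 ± 0.52, adjusted p = 1.39e-06). The bases shared with Slfn5 and its promoter are printed above.

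Ptgs2os, beside the gene of the inducible cyclooxygenase Ptgs2 that makes prostaglandins in inflammation, was too low to test with the others. Its start lies 68 bases from that of Ptgs2, on the other strand, and no opposite-strand exon covers it. Ptgs2os held 0 counts in all 6 resting libraries, 7, 6 and 2 in WT M1, and 4, 8 and 7 in KO M1. The rise was at least 6.8-fold in wild type and at least 8.47-fold in knockout, taken against 3 counts over the resting group and for counting error only. The fit with no filter on low rows gave an adjusted p of 0.0228 in wild type and 0.0127 in knockout. All counts of Ptgs2os lay in M1, so the row met the limit on total counts only through M1. A rise was thus set in advance, and these folds and p-values are a description and no support. The Ptgs2 row rose from 0 in all 6 resting libraries to 50, 14 and 38 counts in WT M1 and 21, 53 and 44 in KO M1 (edgeR adjusted p = 2.61e-08 and 1.51e-08).

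Brip1os, named after a DNA helicase that acts with BRCA1 in DNA repair, was the row with the most counts. It held 1278, 1156 and 1043 counts in WT M0 against 7558, 4696 and 4771 in WT M1 and, for knockout, 1183, 1272 and 1110 at rest against 4528, 4792 and 5670 after stimulation. Stimulated and resting libraries did not overlap in either genotype. The level rose from 2218 ± 255 to 15080 ± 849 CPM in wild type (log2 fold change 2.77 ± 0.09, edgeR adjusted p = 7.39e-22) and from 2367 ± 139 to 13460 ± 844 in knockout (2.51 ± 0.09, adjusted p = 6.45e-21). Brip1 itself was at 0 counts in every library. Of the genes opposite its exons, the Med13 row rose from 0, 6 and 2 to 14, 13 and 12 counts in wild type (log2 fold change 2.70 ± 0.79, edgeR adjusted p = 0.00522) and was called in knockout as well (1.90 ± 0.72, adjusted p = 0.0299). The Ints2 row, the other gene opposite, was not called (0.45 ± 0.20 and 0.10 ± 0.20).

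**Figure D4:**
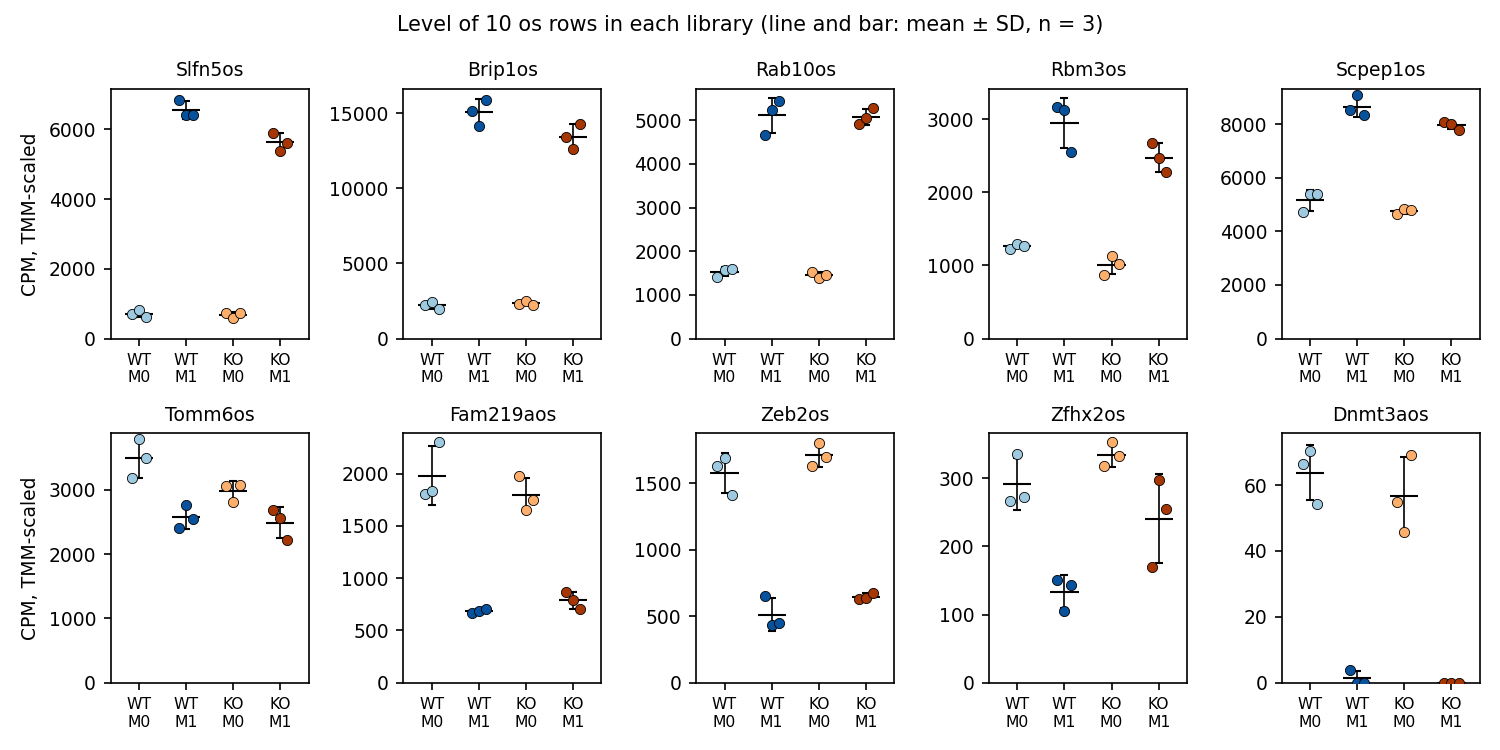
Level of 10 os rows in each library, in TMM-scaled CPM on linear axes from 0, by group; points are libraries, lines the mean and bars the SD of 3 libraries. Slfn5os, Brip1os, Rab10os, Rbm3os and Scpep1os are higher in both M1 groups, Fam219aos, Zeb2os and Dnmt3aos are lower in both, and the Zfhx2os libraries of KO M1 lie between those of WT M1 and KO M0.

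Among rows named after genes of signalling and vesicle traffic, Rab10os rose about as much in both genotypes. Rab10 is a small GTPase of vesicle transport that carries Toll-like receptor 4 to the surface of mouse macrophages. Rab10os held 807, 738 and 855 counts in WT M0 against 2324, 1733 and 1633 in WT M1 and, for knockout, 773, 695 and 717 at rest against 1653, 1919 and 2093 after stimulation. All M1 libraries lay above all M0 libraries. The log2 fold change was 1.74 ± 0.09 in wild type (edgeR adjusted p = 1.2e-16) and 1.81 ± 0.09 in knockout (adjusted p = 4.97e-17). The Rab10 row, with 25 to 54 counts a library, was not called (0.08 ± 0.31 and 0.42 ± 0.31).

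Of the other rows in that group, Tnk2os (named after a non-receptor tyrosine kinase) fell in wild type. It had 17, 4 and 16 counts in WT M0 against 0, 0 and 1 in WT M1, with 15, 7 and 8 in KO M0 against 5, 7 and 2 in KO M1. The wild-type level was 26.5 times higher in M0 (95% exact counting interval 4.48 to 1076, from 37 counts against 1; edgeR adjusted p = 0.00294), and the fitted log2 fold change moved from -4.29 to -6.41 without WT M1 replicate 3, the one stimulated library with a count. In knockout the row was not called (-0.64 ± 0.81, adjusted p = 0.544). Tnk2os was high enough to test only through M0. Arhgap15os, named after a GTPase-activating protein for Rac, was lower in KO M1 (log2 fold change -0.51 ± 0.19, edgeR adjusted p = 0.0248) with -0.34 ± 0.19 in wild type. Tbc1d22bos, named after a gene with a Rab GTPase-activating domain, was higher in KO M1 (0.52 ± 0.21, adjusted p = 0.0452) with 0.46 ± 0.21 in wild type (adjusted p = 0.076). Both calls were lost when single libraries were left out: that of Arhgap15os without KO M0 replicate 2 or 3 or KO M1 replicate 1 or 2 (adjusted p of 0.0912, 0.107, 0.111 and 0.0842), and that of Tbc1d22bos without each of 8 of the 12 libraries (0.0505 to 0.296). The Tbc1d22bos call was also lost with DESeq2 (adjusted p = 0.0633), limma-voom (0.0565), the knockout libraries alone (0.06), no filter (0.279) and library size alone (0.874). Lppos (a focal adhesion protein) at 1.11 ± 0.48 and 0.79 ± 0.48, Rptoros (the raptor subunit of mTOR complex 1) at -0.30 ± 0.21 and -0.37 ± 0.21, and Frs3os (a growth factor receptor adaptor) at 0.52 ± 0.79 and -1.03 ± 0.78 were called in neither genotype.

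Among rows named after genes of protein breakdown, Scpep1os rose moderately from a high level. It held 2693, 2534 and 2873 counts in WT M0 against 4246, 3011 and 2504 in WT M1 and, for knockout, 2370, 2436 and 2359 at rest against 2727, 3037 and 3093 after stimulation. In CPM, which takes the library size into account, no stimulated library fell among the resting ones. The change was from 5165 ± 394 to 8653 ± 396 CPM in wild type (log2 fold change 0.74 ± 0.08, edgeR adjusted p = 2.44e-09) and from 4760 ± 99.8 to 7967 ± 152 in knockout (0.74 ± 0.08, adjusted p = 2.77e-09). With library size alone the changes were 0.24 and 0.27 and the row stayed called. The Scpep1 row had 0 to 12 counts a library. Hectd2os, named after a ubiquitin ligase, had 8, 10 and 10 counts in KO M0 against 9, 31 and 23 in KO M1 (log2 fold change 1.57 ± 0.56, edgeR adjusted p = 0.0215), and 16, 10 and 24 against 22, 22 and 3 in wild type (0.37 ± 0.54, adjusted p = 0.603). Its call in knockout was lost without KO M0 replicate 1 (adjusted p = 0.0591) or KO M1 replicate 2 (0.137), with library size alone (0.101) and with no filter (0.0632). Uchl1os, named after a deubiquitinase, was called in neither genotype (-0.84 ± 0.50 and 0.16 ± 0.48). Fbxl12os, named after an F-box protein, was too low to test, with 4, 4 and 11 counts in WT M0 against 7, 9 and 5 in WT M1 and, for knockout, 3, 2 and 0 at rest against 3, 5 and 13 after stimulation. In CPM its M1 and M0 libraries overlapped in wild type and did not in knockout, where all 3 stimulated ones were higher.

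Of the rows named after RNA-binding and splicing genes, Rbm3os rose and Wdr83os was not called. Rbm3 is an RNA-binding protein induced by cold. Rbm3os held 703, 603 and 674 counts in WT M0 against 1574, 1034 and 765 in WT M1 and, for knockout, 446, 569 and 499 at rest against 899, 939 and 903 after stimulation. In both genotypes the stimulated libraries were the higher ones, with log2 fold changes of 1.23 ± 0.11 (edgeR adjusted p = 4.61e-11) and 1.30 ± 0.11 (adjusted p = 1.66e-11). The Rbm3 row, with 0 to 20 counts a library, was not called. Wdr83os, with 2 to 18 counts a library, changed by -0.66 ± 0.85 and -0.67 ± 0.76.

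Of 7 tested rows named after transcription and chromatin genes (Dnmt3aos, Zeb2os, Zfhx2os, Cebpzos, Ino80dos, Sp3os and Zfp85os), 5 fell in wild type, where 23.1% of all rows did, and 3 in knockout, where 22.4% did. The rows were put together after their values were seen, so nothing about the group follows from these counts. Dnmt3a makes new DNA methylation marks. The Dnmt3aos row held 38, 33 and 29 counts in WT M0 against 2, 0 and 0 in WT M1 and, for knockout, 28, 23 and 34 at rest against 0, 0 and 0 after stimulation. It was thus at or near 0 in all 6 stimulated libraries and present in all 6 resting ones. The level in WT M0 was 35.9 times that in WT M1 (95% exact counting interval 9.67 to 300.2, from 100 counts against 2; edgeR adjusted p = 3.07e-06), and in knockout it was at least 20.98-fold lower in M1, against 3 counts over the group (adjusted p = 7.65e-07). The row was high enough to test only through M0, so these p-values are a description and no support for a fall. The fitted log2 fold change in wild type, -4.99, became -7.82 without WT M1 replicate 1, which held both of the stimulated counts. The Dnmt3a row, with 20, 6 and 6 counts against 1, 1 and 2, fell in wild type (log2 fold change -2.36 ± 0.99, edgeR adjusted p = 0.0492) and had -1.77 ± 0.94 in knockout (adjusted p = 0.119). Of 14 genes of DNA methylation and its reversal, Dnmt3a was the one whose row could be tested.

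Zeb2 is a DNA-binding repressor that helps to keep the identity of tissue macrophages, and an antisense transcript of its human counterpart is known to affect its splicing. Zeb2os had 934, 794 and 753 counts in WT M0 against 326, 143 and 136 in WT M1 and, for knockout, 833, 910 and 833 at rest against 211, 243 and 268 after stimulation. All resting libraries were above all stimulated ones. The level fell from 1579 ± 149 to 513 ± 123 CPM in wild type (log2 fold change -1.61 ± 0.13, edgeR adjusted p = 7.39e-12) and from 1711 ± 87.4 to 648 ± 25.5 in knockout (-1.40 ± 0.13, adjusted p = 1.53e-10). The Zeb2 row was not called: it held 1094, 881 and 901 in WT M0 and 899, 601 and 646 counts in WT M1 (0.07 ± 0.12, adjusted p = 0.628), with 0.13 ± 0.12 in knockout (adjusted p = 0.375).

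Zfhx2os, named after a zinc-finger homeobox gene, held 152, 157 and 145 counts in WT M0 against 75, 35 and 43 in WT M1 and, for knockout, 162, 178 and 163 at rest against 57, 113 and 101 after stimulation. It fell by 1.11 ± 0.21 on the log2 scale in wild type (edgeR adjusted p = 4.3e-05). In knockout the change was -0.47 ± 0.20 with an adjusted p of 0.0503, on the edge of the threshold, and it was called in 9 of 21 alternative analyses. Cebpzos fell together with Cebpz, a nucleolar protein of ribosome assembly that is among the few named genes with many counts of their own. Cebpzos had 301, 282 and 328 counts against 122, 94 and 82 in wild type and 236, 199 and 244 against 96, 127 and 67 in knockout. The groups were apart in both genotypes (log2 fold change -1.12 ± 0.19, edgeR adjusted p = 6.19e-06, and -0.78 ± 0.19, adjusted p = 0.000773). The Cebpz row had -1.05 ± 0.14 (edgeR adjusted p = 2.04e-07) and -0.54 ± 0.14 (adjusted p = 0.00178). Ino80dos, named after a subunit of the INO80 chromatin remodeller, was lower in WT M1, with 657, 524 and 573 counts against 418, 261 and 270 (-0.40 ± 0.12, edgeR adjusted p = 0.00454), and in knockout had 487, 453 and 489 against 282, 367 and 380 (-0.04 ± 0.12, adjusted p = 0.785). Sp3os (0.23 ± 0.42 and 0.03 ± 0.41), beside the GC-box factor Sp3, was called in neither, and nor was Zfp85os (-1.19 ± 0.89 and -1.71 ± 0.90), beside a zinc-finger gene. Zfp652os and Msx1os, named after a zinc-finger and a homeobox gene, held 12 and 14 counts and were not tested.

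Rows named after metabolic and mitochondrial genes went both ways. Tomm6, a small subunit of the outer membrane translocase of mitochondria, gives its name to the row that fell least among those called in both genotypes. Tomm6os held 1814, 1779 and 1866 counts in WT M0 against 1199, 914 and 764 in WT M1 and, for knockout, 1562, 1416 and 1512 at rest against 904, 972 and 878 after stimulation. In CPM the resting libraries were all above the stimulated ones (log2 fold change -0.44 ± 0.10 in wild type, edgeR adjusted p = 0.000368; -0.26 ± 0.10 in knockout, adjusted p = 0.0271). The call in knockout was lost without KO M0 replicate 1 or 3 or KO M1 replicate 3 (adjusted p of 0.103, 0.0959 and 0.185). Man2c1os, named after a cytosolic mannosidase, held 332, 220 and 285 counts in WT M0 against 106, 93 and 64 in WT M1 and, for knockout, 259, 304 and 219 at rest against 101, 113 and 102 after stimulation. It was lower in every stimulated library (-1.17 ± 0.17, edgeR adjusted p = 7.79e-07, and -0.87 ± 0.17, adjusted p = 6.69e-05). Far1os, named after a fatty acyl-CoA reductase of ether lipid synthesis, held 328, 288 and 278 counts against 186, 92 and 89 in wild type and 276, 315 and 278 against 124, 151 and 128 in knockout. It fell in both genotypes (-0.84 ± 0.16, edgeR adjusted p = 3.32e-05, and -0.67 ± 0.15, adjusted p = 0.000539).

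Nudt12os, named after a peroxisomal NAD(H) pyrophosphatase, fell in wild type from 20, 13 and 14 counts to 2, 1 and 0, and had 20, 10 and 9 against 7, 7 and 4 in knockout. The wild-type level was 11.2 times higher in M0 (95% exact counting interval 3.62 to 56.4, from 47 counts against 3; edgeR adjusted p = 0.00161), while the knockout change was -0.65 ± 0.68 (adjusted p = 0.448). Nudt12os was high enough to test only through M0. Acss2os, named after an enzyme that makes acetyl-CoA from acetate, rose in both genotypes. It held 28, 34 and 41 counts in WT M0 against 69, 59 and 49 in WT M1 and, for knockout, 41, 36 and 29 at rest against 44, 86 and 73 after stimulation (log2 fold change 1.27 ± 0.28, edgeR adjusted p = 0.000322, and 1.36 ± 0.28, adjusted p = 0.00013), with no overlap of the groups in CPM. Ppifos, named after cyclophilin D of the mitochondrial permeability pore, had 63, 54 and 67 counts in WT M0 against 92, 64 and 62 in WT M1, and in knockout 55, 34 and 59 against 42, 49 and 61. It was called in wild type (0.73 ± 0.24, edgeR adjusted p = 0.0117) and had 0.47 ± 0.25 in knockout (adjusted p = 0.123). The wild-type call was lost with library size alone (adjusted p = 0.435) and with no filter on low rows (0.0882). Mccc1os (leucine breakdown; -0.71 ± 0.35 and -0.37 ± 0.34), Uckl1os (a uridine kinase-like protein; 0.25 ± 0.20 and 0.11 ± 0.20), Abhd11os (a mitochondrial hydrolase; -0.86 ± 0.57 and -0.15 ± 0.55) and Slc7a6os (beside an amino acid transporter; 0.55 ± 0.99 and -1.50 ± 0.99) were called in neither genotype. Has2os, beside a hyaluronan synthase, was too low to test, with 12, 5 and 12 counts in WT M0 against 2, 0 and 1 in WT M1 and, for knockout, 2, 4 and 4 at rest against 2, 0 and 0 after stimulation.

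Of the rows whose named genes are less well known, Fam219aos fell and Phtf1os rose. Fam219aos had 1034, 858 and 1229 counts in WT M0 against 332, 228 and 211 in WT M1 and, for knockout, 1007, 831 and 859 at rest against 291, 299 and 281 after stimulation. Resting and stimulated libraries were far apart (log2 fold change -1.53 ± 0.12, edgeR adjusted p = 1.96e-12, and -1.19 ± 0.12, adjusted p = 6.04e-10), and Fam219a had at most 2 counts in any library. Phtf1os had 744, 720 and 817 counts against 1261, 851 and 733 in wild type, and 722, 818 and 623 against 949, 894 and 1091 in knockout. In CPM it was higher in all stimulated libraries (0.79 ± 0.11, edgeR adjusted p = 2.65e-07, and 0.88 ± 0.11, adjusted p = 3.44e-08), and 0.29 and 0.41 with library size alone, still called. Ggnbp2os had 50, 105 and 46 counts in KO M0 against 64, 79 and 101 in KO M1 and was called there (0.71 ± 0.26, edgeR adjusted p = 0.026), with 100, 102 and 57 against 119, 81 and 64 in wild type (0.49 ± 0.26, adjusted p = 0.116). Its call was lost without KO M0 replicate 1 or 3 or KO M1 replicate 3 (adjusted p of 0.109, 0.134 and 0.128) and with library size alone (0.474). Fam120aos, beside a gene of an RNA-binding protein, held 15 counts and was not tested.

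The calls are given by the position of the os transcript relative to the named gene, beside 25.7% of all rows higher and 23.1% lower in wild type and 25.2% and 22.4% in knockout. With so few rows in each class they are counts only. Of the 9 tested rows lying inside the named gene, 1 was higher and 4 were lower in wild type, and 2 and 4 in knockout. Of the 12 tested rows with overlapping 5′ ends, 3 were higher and 3 lower in wild type, and 3 and 2 in knockout. Of the 8 with overlapping 3′ ends, 3 were higher and 3 lower in wild type, and 3 and 2 in knockout.

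Whether an os row moved like the row of its named gene could be asked in 9 pairs with both rows tested. For each library the log2 ratio of the 2 counts was taken, with 0.5 added to each, and M1 was compared with M0 by an exact two-sided permutation test of libraries within each genotype, whose smallest possible p is 0.005 over 400 rearrangements. The ratio of Zeb2os to Zeb2 was lower in M1, with a difference of -1.71 in wild type and -1.52 in knockout (log2 scale, exact p = 0.005, 0.015 adjusted over the 9 pairs). That of Rab10os to Rab10 was higher in M1 by 1.68 and 1.36 (exact p = 0.005, adjusted 0.015), and that of Dnmt3aos to Dnmt3a was lower, with -2.88 and -4.18 (exact p = 0.005, adjusted 0.015). In these 3 pairs the direction was the same in both genotypes. The Dnmt3aos ratio rests on stimulated libraries near 0 in both rows, and both rows were high enough to test only through M0. Each KO M1 library held 0 counts of Dnmt3aos and 2 of Dnmt3a, so the added 0.5 sets that ratio (-2.32, SD 0). The p of the Dnmt3aos pair is a description and no support. For Slfn5os and Slfn5 the mean difference was -0.06 (exact p = 0.91, adjusted 0.91) and for Cebpzos and Cebpz it was -0.17 (exact p = 0.41, adjusted 0.662). The other 4 pairs (Lppos, Rbm3os, Sp3os and Wdr83os) had exact p of 0.165 to 0.815. A p that misses the threshold does not show that both rows moved alike.

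**Figure D5:**
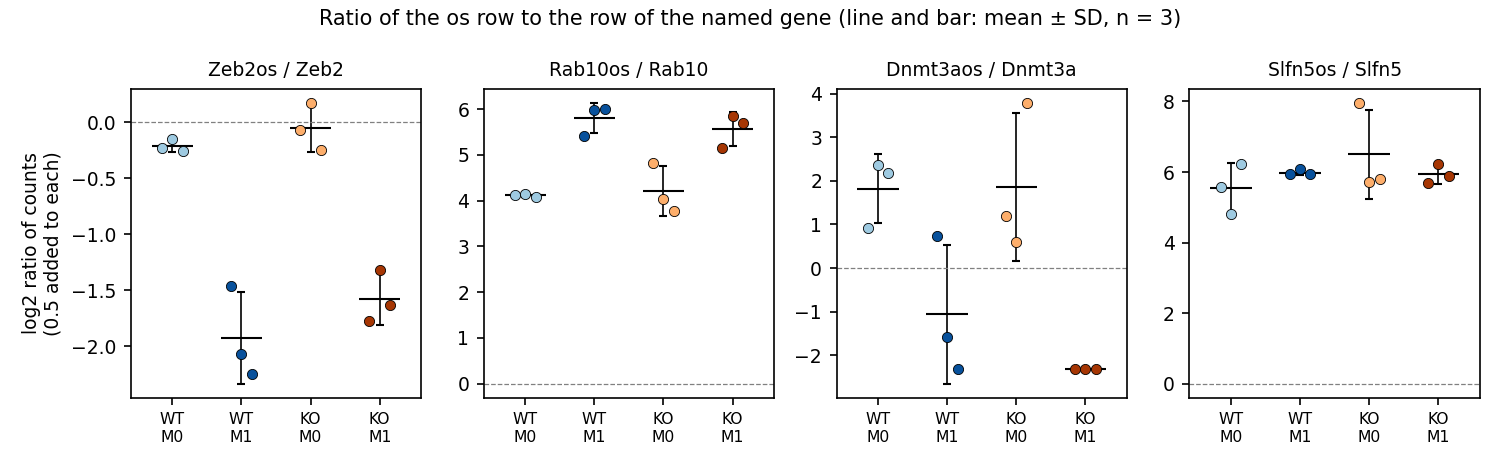
Log2 ratio of the counts of the os row to those of the row of the named gene (0.5 added to each) in every library, by group, for 4 pairs; lines are means and bars the SD of 3 libraries, and the dashed line marks equal counts. The ratio is lower in M1 for Zeb2os and Dnmt3aos and higher for Rab10os in both genotypes, and for Slfn5os the groups overlap.

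The response of the os rows was not shown to differ between the genotypes. No interaction of genotype and stimulation was called for the 34 tested os rows (0% of all rows in edgeR's quasi-likelihood test, and 0 os rows by DESeq2 and limma-voom), with 6 at an unadjusted p under 0.05 (6.17% of all rows) and a smallest adjusted p of 0.639. The 5 rows called in wild type alone and the 4 called in knockout alone are therefore not shown to respond in 1 genotype. The difference in log2 fold change, knockout minus wild type, was 3.65 ± 1.49 for Tnk2os, 2.73 ± 1.12 for Nudt12os, 0.65 ± 0.29 for Zfhx2os, 0.36 ± 0.16 for Ino80dos, 0.34 ± 0.17 for Fam219aos and -0.26 ± 0.12 for Brip1os, the 6 with an unadjusted p under 0.05. Tnk2os and Nudt12os were high enough to test only through M0 and held 1 and 3 counts summed over WT M1. Their differences are therefore a description and no support. For Slfn5os the difference was -0.15 ± 0.15 and for Rab10os 0.07 ± 0.13. Between knockout and wild type in M0, no os row was called (0.0429% of all rows were, 1 row), with 3 at an unadjusted p under 0.05, as 6.47% of all rows were (Rbm3os, Cebpzos and Tomm6os, all lower in knockout) and a smallest adjusted p of 0.507, and DESeq2 and limma-voom called 0. The libraries did not overlap in 6 os rows (11.9% of all rows). In M1 no os row was called either (0% of all rows, 0 by DESeq2 and limma-voom), with 7 at an unadjusted p under 0.05 (7.03% of all rows) and a smallest adjusted p of 0.29, that of Zfhx2os (0.85 ± 0.22), and the libraries of 9 os rows did not overlap (10.8% of all rows).

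The share of all counts that fell in os rows was higher after stimulation. It was 2.85 ± 0.116% at rest against 4.01 ± 0.109% after stimulation in wild type, and 2.70 ± 0.032% against 3.86 ± 0.115% in knockout (SD, n = 3). The 3 stimulated libraries were above the 3 resting ones in each genotype. Without Brip1os and Scpep1os the shares were 1.98 ± 0.0649% against 2.03 ± 0.0842% in wild type and 1.86 ± 0.00854% against 2.02 ± 0.0328% in knockout. These 2 rows were picked by their total count, and they are not the only ones that rose. In wild type Brip1os went from 2218 to 15080 CPM and Scpep1os from 5165 to 8653. Slfn5os went from 717 to 6555 and Rab10os from 1529 to 5113, while other rows fell.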

How the data were processed

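RNA was measured in 12 libraries, 3 in each group. The deposited table holds raw whole-number counts per gene symbol, per the file headers. The submitters' processing notes name HTSeq, Trimmomatic, DESeq2, FastQC and the build mm10; the aligner, annotation and strand setting are not given in the sources used here. Column names matched sample titles, from which groups were taken.

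The os rows, the gene lists and the comparisons were chosen with earlier results of these data known. Rows were filtered with filterByExpr on the 4 groups, scaled with TMM and fitted with edgeR 4.0.16 (R 4.3.3, quasi-likelihood, robust) on all 12 libraries; the model was first tested on simulated data. Alternatives used DESeq2 1.42.0, limma-voom (limma 3.58.1), other scalings and filters, counts halved and rounded up, 1 genotype alone, a replicate block and leaving out each library. The os rows are named, except 1 that is not reported here. The pair ratio test and the grouping by role were added after values were seen. A group at 0 was given 3 counts for "at least" folds. Intervals and such limits cover counting error only, because they were taken from counts summed over a group and leave out the spread between libraries. PCR copies of a molecule were also not told apart. Whether each library had its own mouse is not in the labels; a p-value then measures library-to-library spread, which may be technical. Replicates of a group correlated at 0.924 to 0.958 and no 2 libraries were identical. Exons, coordinates and transcripts are from GENCODE M21, promoters from RefSeq.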

Additional observations from a re-analysis of the deposited data

How the results depend on the processing

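The calls of os rows held up in number. In wild type 19 were called with all libraries and 19 to 20 when 1 library was left out, with 19 to 23 under the other settings. In knockout the numbers were 18, 14 to 19 (14 without KO M0 replicate 3) and 17 to 20. For the interaction and for both genotype comparisons 0 os rows were called in every alternative run. Over the fold changes of single rows, 26 values passed the threshold under an alternative when they had not before, 31 lost it, and none of the called ones changed sign. The calls in both genotypes of Slfn5os, Brip1os, Rab10os, Acss2os, Rbm3os, Phtf1os, Scpep1os, Dnmt3aos, Zeb2os, Fam219aos, Man2c1os, Cebpzos and Far1os were kept in all 21 alternatives. The causes of the lost calls were not tested.

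Libraries of the same number in M0 and M1 had deviations from their group means that correlated at 0.0413 to 0.12, and the labels do not say that they share a mouse, so they were not treated as pairs. With the replicate block, 19 os rows were called in wild type, 18 in knockout and 0 for the interaction and in the genotype comparisons in M0 (0) and M1 (0). Under the block the knockout call of Tbc1d22bos was lost (adjusted p = 0.0656) and Zfhx2os was called in knockout (adjusted p = 0.0316); no other os call of M1 against M0 changed. Each of the 6 M0 libraries correlated best with the M1 library of its own number, a hint from the data and not the design.

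Depth limits the low rows: 7 were not tested, and the lowest tested row averaged 14.1 CPM. Of counts from 1 to 12, 48.4% were even in os rows and 60.9% in all rows, so counts may not all be independent; with counts halved and rounded up 19 os rows were called in each genotype.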

Other observations

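Symbols ending in os and a digit were outside the rule, and some were among the higher opposite-strand rows. Atxn7l1os2 held 4343 counts, with 114, 85 and 95 in WT M0 against 879, 508 and 418 in WT M1 and, for knockout, 106, 116 and 105 at rest against 636, 589 and 692 after stimulation. It was higher in every stimulated library, with a log2 fold change of 3.07 in wild type (edgeR adjusted p = 9.44e-19) and 2.99 in knockout (adjusted p = 1.64e-18). Ube4bos3, with 2536 counts, was lower in M1, with -0.38 in wild type (edgeR adjusted p = 0.04) and -0.37 in knockout (adjusted p = 0.0429). Zbtb11os1, with 635 counts, was not called (-0.35 and 0.49). These rows were chosen after their values were seen.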
